A study of Mus musculus with 2 samples.

Results

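The adrenergic receptors are described here across brown fat of mice with and without PKGI, the cGMP-dependent protein kinase type I encoded by Prkg1. They are the genes whose name on the array is Adra1a, Adra1b, Adra1d, Adra2a, Adra2b, Adrb1 or Adrb3, which are 7 of the 19512 genes named on the array, read by 12 of its 41174 gene probes. Each of the 2 arrays compared 1 knockout (KO, labelled PKGI KO) with 1 wild type (WT) littermate of the C57BL/6N background. The adipocyte array set brown adipocytes from a KO culture, in Cy3, against those from a WT culture, in Cy5. These cells had been differentiated in vitro from precursors of brown adipose tissue (BAT). The tissue array set untreated BAT of a KO mouse, in Cy5, against untreated BAT of a WT mouse, in Cy3. Neither array was repeated with the dyes swapped in these data, so genotype and dye cannot be told apart within an array. Sex-linked transcripts also set the KO BAT apart from the WT BAT, and Xist the KO culture apart from the WT culture, as given near the end. No tissue promoter is named for the knockout, and the sources used here give no ages. The biological replicates of the study were measured by quantitative PCR and are not analysed here, so every comparison is of 1 sample with 1 sample. No test across samples can be made, and 2-fold, a log2 ratio of 1 in size, was used to count genes.

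Adrenergic receptors are G protein-coupled receptors for noradrenaline and adrenaline. Beta receptors couple to the stimulatory G protein and raise cyclic AMP (cAMP), alpha1 receptors couple to Gq and release calcium, and alpha2 receptors couple to inhibitory G proteins and lower cAMP. In brown fat, sympathetic nerves release noradrenaline, which acts on beta receptors, chiefly the beta3 receptor in rodents, to start lipolysis and heat production by UCP1.

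The RefSeq promoter table (GRCm38.p6) held 5 start sites of 4 of the receptors, Adra1b, Adra2a, Adra2b and Adrb1. The 250 bases before a start are printed for both starts of Adra1b, the receptor with the largest excess in culture over tissue, and for Adra2a and Adrb1, which hold the core of the cAMP response element. That core, TGACG or its reverse complement, was searched on both strands, and capitals mark it. The sequences run 5′ to 3′ on the strand of the gene, which is the minus strand for Adra1b and the plus strand for Adra2a and Adrb1.
Adra1b, chr11:43901238-43901487: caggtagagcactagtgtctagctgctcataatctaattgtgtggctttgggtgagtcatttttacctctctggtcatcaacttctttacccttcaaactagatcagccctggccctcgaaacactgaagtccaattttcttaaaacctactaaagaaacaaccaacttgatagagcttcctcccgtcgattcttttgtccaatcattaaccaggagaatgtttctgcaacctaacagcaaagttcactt
Adra1b, chr11:43836490-43836739: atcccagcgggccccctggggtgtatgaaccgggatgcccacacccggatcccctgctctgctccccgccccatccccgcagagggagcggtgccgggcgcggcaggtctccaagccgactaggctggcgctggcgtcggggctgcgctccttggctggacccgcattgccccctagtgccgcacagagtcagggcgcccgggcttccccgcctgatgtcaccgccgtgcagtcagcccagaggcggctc
Adra2a, chr19:54045009-54045258: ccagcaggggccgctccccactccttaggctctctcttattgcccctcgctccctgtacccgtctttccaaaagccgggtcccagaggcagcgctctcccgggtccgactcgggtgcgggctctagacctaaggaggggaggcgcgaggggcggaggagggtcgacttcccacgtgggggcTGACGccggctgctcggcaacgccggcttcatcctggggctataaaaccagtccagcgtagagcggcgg
Adrb1, chr19:56721867-56722116: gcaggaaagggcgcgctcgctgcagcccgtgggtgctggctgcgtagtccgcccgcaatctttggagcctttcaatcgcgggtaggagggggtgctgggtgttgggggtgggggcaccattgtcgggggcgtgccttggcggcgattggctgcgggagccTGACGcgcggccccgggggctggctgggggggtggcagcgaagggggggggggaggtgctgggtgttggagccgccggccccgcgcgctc

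The core occurred 1 time in the Adra2a window and 1 time in the Adrb1 window, and 17.8% of the 32851 promoters in the table hold it. The distal Adra1b window was poorest in bases G and C (41.6%), against 72.8% in the proximal one, 67.6% in Adra2a and 74% in Adrb1, where the median of all promoters was 52.4%. These matches describe the letters in the window.

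The receptors detected differed between cultured cells and tissue. A probe was called detected when the scanner software flagged it well above background in a channel. In KO adipocytes 5 of the 7 receptors were detected, where 75.1% of all genes were, and in WT adipocytes 6 were, where 76.3% of all genes were. In KO BAT 6 receptors were detected, against 80.1% of all genes, and in WT BAT 5 were, against 71.1% of all genes. Adra1b, Adra1d, Adra2a and Adrb1 were detected in all 4 channels. Adra1a was detected in both BAT channels and in neither adipocyte channel. Adrb3, by its 1 probe, which the files describe as a splice variant, was detected in WT adipocytes alone. Under the laxer flag of the same software, for signal that is positive and significant, all 7 receptors were counted in KO adipocytes, WT adipocytes and KO BAT, and 6 in WT BAT.

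**Figure D1:**
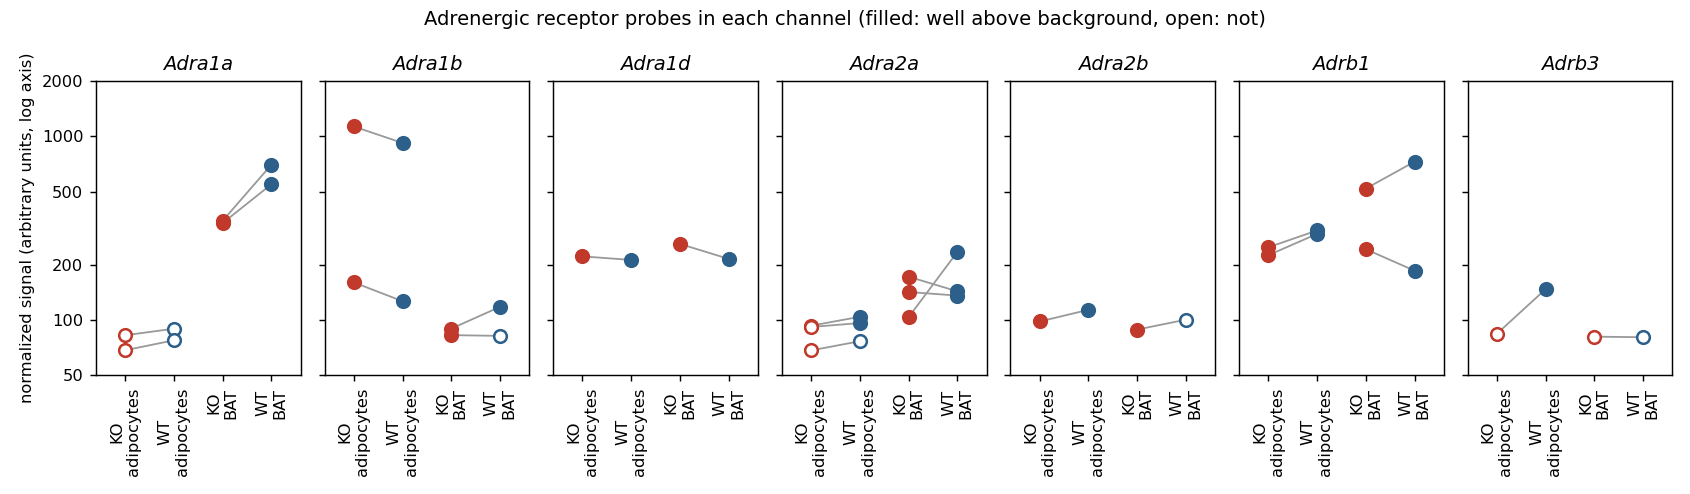
Normalized signal (arbitrary units, log axis) of each receptor probe in KO and WT adipocytes and in KO and WT BAT, with a line joining the channels of 1 array. Filled points were well above background and open points were not: both Adra1a probes are open in culture and lie above 300 units in BAT, and Adrb3 is filled in WT adipocytes alone.

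Between KO and WT, no receptor was counted past 2-fold on either array. On the adipocyte array 0 of 6 receptors with a kept probe were at least 2-fold higher in KO, where 2.5% of all 15118 genes were, and 0 were at least 2-fold lower, where 4.17% of genes were. On the tissue array 0 of 6 were higher, where 0.8% of all 15621 genes were, and 0 were lower, where 2.44% of genes were. Probes that met the detection flag in either dye were kept, and the log2 ratio of a gene is the mean over those probes. These counts and the medians include Adrb3 in adipocytes and Adra2b in BAT, each not well above background in 1 of the channels. The median log2 ratio of the receptors was -0.16 in adipocytes and -0.18 in BAT, beside a median near 0.00 over all genes on both arrays. The only measures of error are within the arrays. Repeat spots of 1 probe had a pooled SD of 0.09 in log2 ratio on the adipocyte array (195 probes) and 0.10 on the tissue array (185 probes). For dim probes, with a mean log2 signal under 8, it was 0.11 and 0.13, and with the scanner software's own ratios 0.26 and 0.35. Different probes of 1 gene had a median SD of 0.14 on the adipocyte array and 0.15 on the tissue array, with 95th percentiles of 0.49 and 0.57.

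**Figure D2:**
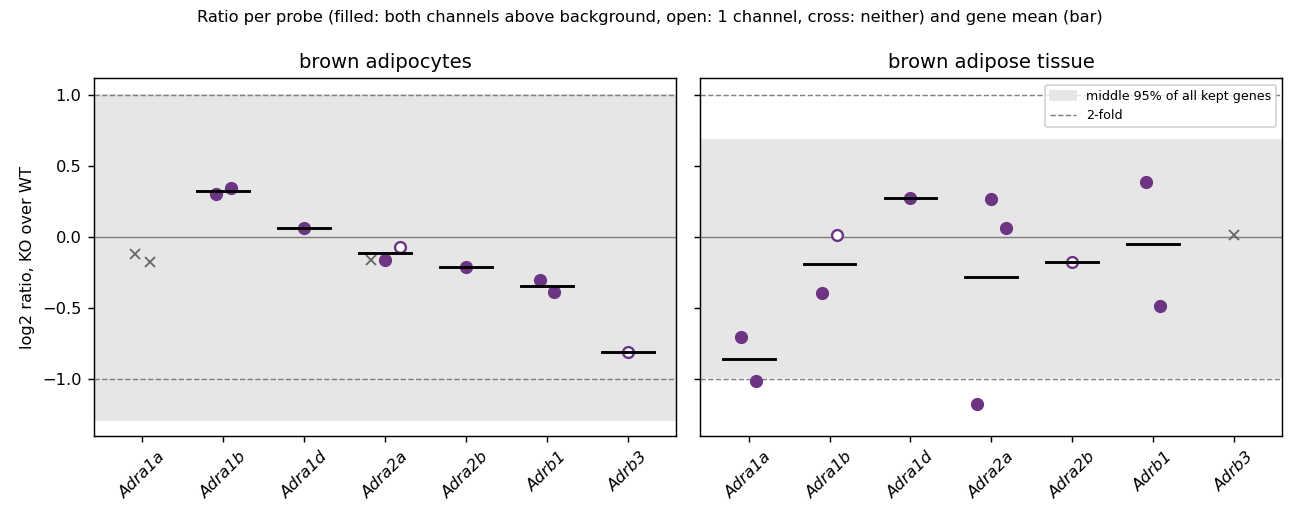
Log2 ratio of KO over WT for each receptor probe (points) and the gene mean over kept probes (bar) in brown adipocytes and in BAT. The gray band holds the middle 95% of all genes, from -1.29 to 1.00 in adipocytes and from -0.99 to 0.68 in BAT, and dashed lines mark 2-fold. All gene means lie inside the dashed lines, with Adrb3, whose KO channel was not above background, lowest in adipocytes (-0.81) and Adra1a lowest in BAT (-0.86).

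Adrb3 encodes the beta3 receptor, the main beta receptor of rodent fat cells. It has 1 probe, at chr8:25982417-25982836 on the minus strand in the files' coordinates, for which no source used here names a build. The files describe it as a splice variant, beta-3b, and whether it reads other forms is not stated. Its coordinates span 420 bases, where a probe is 60 bases long. A signal below the flag is therefore a result for this probe, not for all Adrb3 transcripts. Before normalization its spot read 57.0 intensity units over a local background of 46 in KO adipocytes, against 200.1 over a background of 59 in WT adipocytes. After normalization and scaling of the channels across both arrays, it had 84.0 units in KO adipocytes against 147 in WT adipocytes. The scaled signals carry an offset of 50 units from the background correction, so they understate ratios of dim probes. In BAT it had 81.0 units in KO against 80.4 in WT, and neither was well above background. The KO adipocyte channel was the one below the detection flag on that array. With offset 50 and loess, Adrb3 was at least 1.75-fold lower in KO adipocytes than in WT adipocytes. That bound equals the measured ratio and rests on 1 probe. The measured log2 ratio of -0.81 in adipocytes is therefore no estimate of the size of the difference.

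The measured Adrb3 ratio moved with the background correction. With an offset of 0 in place of 50 it was -1.58 in adipocytes, and by the scanner software's own ratio it was -2.54, which the authors' deposited table also gave (-2.54). It passed 2-fold in these settings, and in them 5.59% of genes with offset 0 and 6.32% with the software's ratios were at least 2-fold lower. Without the loess step it was -0.71, smaller in size than the bound given above, so that bound holds only for its own setting. In bulk RNA, fewer cells of a type and less RNA per cell cannot be told apart. On the same array 6 of 6 markers of mature fat cells were at least 2-fold lower in KO adipocytes, where 4.17% of all genes were. Their median was -4.80 and their summed signal 4665 units in KO against 218750 in WT. The part of these markers in the Adrb3 value was not tested. Adipoq, the fat cell hormone adiponectin, had -5.22, and Pparg, the receptor that drives fat cell differentiation, had -3.49.

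Adrb1 encodes the beta1 receptor, which also couples to cAMP. In adipocytes its probe at chr19:56638805-56638864 had 248 units in KO against 307 in WT, and its probe at chr19:56640778-56640837 had 225 units in KO against 294 in WT. Both probes were lower in KO adipocytes, with log2 ratios of -0.30 and -0.39 and a gene mean of -0.34. That mean was below 0 in all 10 settings tried, between -0.65 and -0.30, and 18.1% of genes were lower still. In BAT the same probes disagreed: the first had 242 units in KO against 185 in WT, and the second had 519 in KO against 727 in WT. Their log2 ratios were 0.39 and -0.49, so the gene mean of -0.05 joins probes that point in opposite directions. On the tissue array the spot of the second probe also carries a flag for a background unlike that of other spots, and without such spots Adrb1 in BAT was 0.39, from the first probe.

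Among the alpha1 receptors, Adra1a and Adra1b differed past 2-fold between culture and tissue and Adra1d did not. Adra1a, the alpha1A receptor, has probes at chr14:61588779-61588838 and chr14:61594064-61594123, which lie 5285 bases apart. In adipocytes they had 82.4 and 68.3 units in KO, against 89.5 and 77.3 in WT, none of them well above background, so the gene has no ratio in culture. In BAT they had 337 and 347 units in KO, against 548 and 700.15 in WT, all well above background. Both probes were lower in KO BAT, with log2 ratios of -0.70 and -1.01. The gene mean was -0.86, which is 1.81-fold lower in KO, and 3.25% of genes were lower. The 2 probes differed from each other by more than the spread of repeat spots but lay on the same side of 0.

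The Adra1a value in BAT crossed the 2-fold line with the setting. It was -1.05 with an offset of 0, where 5.35% of genes passed 2-fold downward, and -1.09 with the software's ratios, where 6.09% of genes were. It was -0.52 without loess, and -0.15 when spots with an outlier flag stayed in the fit, a setting that brought all 6 receptors measured in BAT closer to 0. On the same array 6 of 6 skeletal muscle markers were at least 2-fold lower in KO BAT, where 2.44% of all genes were. Their median was -2.79 and their summed signal 31620 units in KO against 189420 in WT. Among them Ckm, the muscle creatine kinase, had -2.93 and Actn2, an actinin of striated muscle, had -3.27. The part of these markers in the Adra1a value was not tested.

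Adra1b, the alpha1B receptor, has probes at chr11:43732065-43732124 and chr11:43792132-43792191 on the minus strand, 60067 bases apart. In adipocytes the first had 1131 units in KO against 919 in WT, and the second had 159.9 in KO against 126 in WT. Their log2 ratios of 0.30 and 0.34 were alike, and the mean of 0.32 made Adra1b the receptor with the highest ratio in adipocytes. It stayed above 0 in all 10 settings, between 0.07 and 0.50, and 19.6% of genes were higher. In BAT the first probe had 89.5 units in KO against 118 in WT and the second had 82.5 in KO against 81.8 in WT, where it was not well above background. The mean in BAT was -0.19, and it turned to 0.18 with the software's ratios. The promoter letters printed above for Adra1b belong to 2 starts, and neither probe was assigned to one of them.

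Adra1d, the alpha1D receptor, has 1 probe, at chr2:131287277-131287336 on the minus strand. It had 222 units in KO adipocytes against 212 in WT adipocytes, and 259 in KO BAT against 215 in WT BAT. The log2 ratios were 0.06 in adipocytes, which turned to -0.19 without loess, and 0.27 in BAT, where 15.6% of genes were higher and where it turned to -0.57 after a shift by spiked-in control RNAs. A further probe that the files describe as this receptor but name by the sequence AK034299 lies at chr2:131303978-131304037 on the plus strand, opposite to Adra1d. It was well above background in all 4 channels, with log2 ratios of 0.29 in adipocytes and 0.12 in BAT, and it is not part of the Adra1d values. With it, Adra1d had 0.18 in adipocytes and 0.20 in BAT.

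The alpha2 receptors gave low signals. Adra2a, the alpha2A receptor that inhibits lipolysis, has probes at chr19:53960356-53960415, chr19:53961681-53961740 and chr19:53961741-53961800. In adipocytes the first had 68.1 units in KO against 76.5 in WT and was not well above background. The second had 92.9 units in KO against 104 in WT. The last had 91.4 units in KO, where it was not well above background, against 96.1 in WT. The mean log2 ratio of these kept probes was -0.12, which turned to 0.10 without loess.

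In BAT the Adra2a probes split. The second and the last, which adjoin, had 172 and 142 units in KO, against 143 and 136 in WT, with log2 ratios of 0.26 and 0.06. The first, which lies 5′ of them, had 103 units in KO against 234 in WT and a log2 ratio of -1.18. The gene mean of -0.28 thus rests on 1 probe of 3, the one whose spot carries the background flag, and without such spots the mean was 0.17. Adra2b, the alpha2B receptor, has 1 probe, at chr2:127105142-127105201. It had 98.0 units in KO adipocytes against 113 in WT adipocytes, a log2 ratio of -0.21 that stayed below 0 in all 10 settings. In BAT it had 88.5 units in KO against 100.2 in WT, where it was not well above background, so no fold is given.

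**Figure D3:**
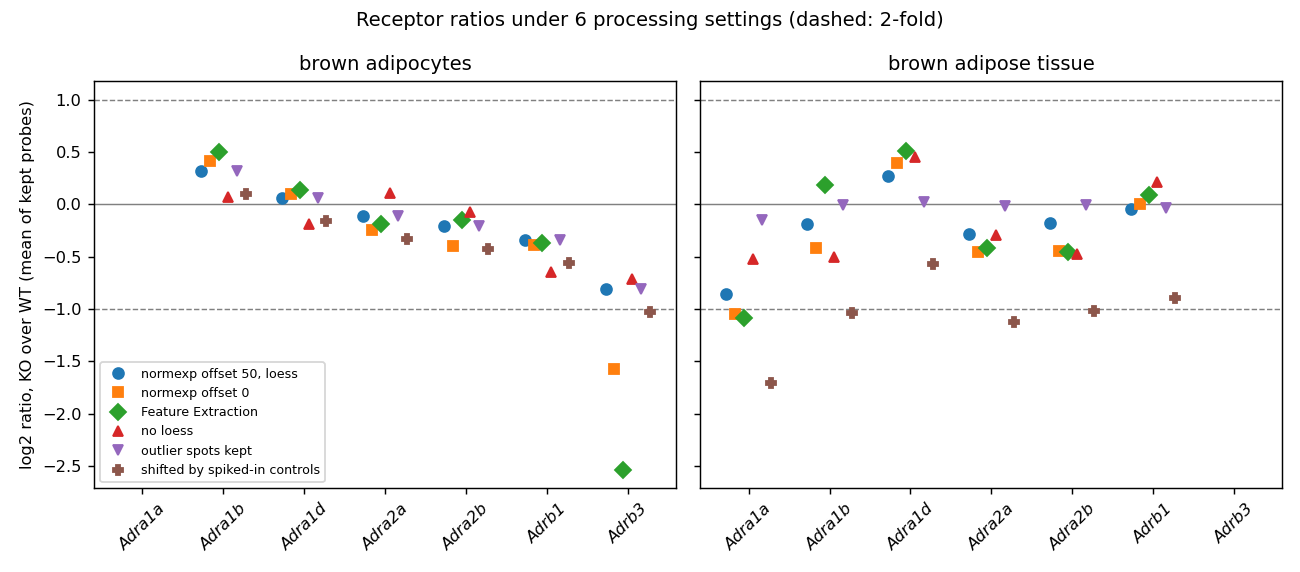
Log2 ratio of KO over WT of each receptor gene in brown adipocytes and in BAT under 6 processing settings, with dashed lines at 2-fold. Adrb3 in adipocytes, not above background in KO, spans -2.54 to -0.71, Adra1a in BAT spans -1.70 to -0.15, and the shift by spiked-in controls lowers every receptor in BAT by 0.84.

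One shift moved all receptors together. The scanner software fitted it in spiked-in control RNAs, from its own red over green ratios. As KO over WT it was an excess of 0.84 on the log2 scale for BAT and of 0.22 for adipocytes. Here it was taken off the loess ratios, which were normalized another way. With that shift taken off, 4 of 6 measured receptor ratios passed 2-fold downward in KO BAT, where 29.3% of all genes did. They were Adra1a, Adra1b, Adra2a and Adra2b, of which Adra2b was not well above background in WT BAT, so its ratio carries no fold. In adipocytes Adrb3 was then the 1 receptor past 2-fold downward, where 6.44% of genes were. The ratios above are therefore relative to the bulk of the genes on each array.

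Signals in culture were then set against those in tissue probe by probe, as the mean of the KO and WT channels, so that each side holds each dye once. The arrays differ in cell source and in hybridisation, which cannot be told apart, and at least 2-fold differences were common: 17.7% of 16263 genes were higher in culture and 16.2% were lower. Adra1b was 4.14-fold higher in adipocytes than in BAT, with a log2 ratio of 2.05, and 5.90% of genes were higher. Its probes differed in size: the one at chr11:43732065-43732124 was 9.93-fold higher in adipocytes and the other 1.73-fold. Adra1a was at least 5.63-fold lower in adipocytes than in BAT, where both of its probes were not well above background. By genotype it was at least 4.36-fold lower in culture for KO and at least 7.45-fold lower for WT. KO was in Cy3 in culture and in Cy5 in BAT, and WT the other way round. Each of these bounds therefore also compares dyes, and the gap between them cannot be told apart from dye.

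The other receptors detected on both sides, Adra1d, Adra2a, Adra2b and Adrb1, had gene means within 2-fold. Adra1d had a log2 ratio of culture over tissue of -0.12. Adra2b had 0.16, a mean that includes WT BAT, where it was not well above background. Adra2a had -0.78, with all 3 probes lower in adipocytes, 1 of them not well above background there. Adrb1 had -0.44, but its probes disagreed at 0.38 and -1.26. Adrb3 has no ratio in KO, where it was not well above background on either side. In WT it was at least 1.83-fold higher in adipocytes than in BAT, a bound that also sets Cy5 in culture against Cy3 in BAT.

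**Figure D4:**
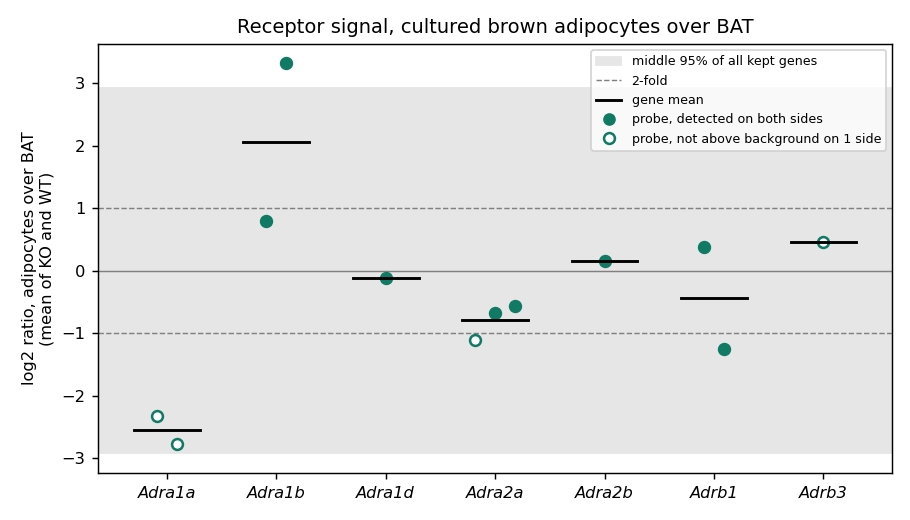
Log2 ratio of signal in brown adipocytes over signal in BAT (mean of KO and WT) for each receptor probe (points, open where not above background on 1 side) and gene (bar). The gray band holds the middle 95% of all genes, from -2.92 to 2.92, and dashed lines mark 2-fold: Adra1b (2.05) lies above and Adra1a, a bound with open points, below them.

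The genes that couple the receptors to cAMP and calcium were counted next, beside shares over all genes of 2.5% higher and 4.17% lower in KO adipocytes and 0.8% higher and 2.44% lower in KO BAT. Of 26 kept G proteins and receptor regulators, 1 was higher and 1 lower in KO adipocytes, with a median of 0.04. Rgs2, a regulator that speeds the shut-off of Gq, had -1.59 in adipocytes and 1.89 in BAT. On both arrays its Cy5 channel was the higher one, so dye and genotype cannot be told apart in these values. Gna14, an alpha subunit of the Gq family, had 1.01 in adipocytes (0.79 after the spiked-in shift). In BAT, 1 of 27 was higher, Rgs2, and 0 were lower, with a median of 0.02. Gnas, which encodes the stimulatory alpha subunit used by the beta receptors, had 0.15 in adipocytes and -0.56 in BAT.

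Of 31 genes of the cAMP branch, 0 were higher and 4 lower in KO adipocytes, where 4.17% of all genes were lower, with a median of 0.01 that was -0.34 without loess. Prkar2b, a regulatory subunit of protein kinase A abundant in fat, had -2.13. The adenylyl cyclases Adcy7 and Adcy5 had -1.44 and -1.43, with Adcy5 not well above background in KO adipocytes, and Pde3b, the phosphodiesterase through which insulin restrains lipolysis, had -1.36. In BAT, 0 of 32 passed 2-fold and the median was -0.05. The kinase inhibitor Pkia was nearest at -0.98, from probes at -1.56 and -0.40. It passed 2-fold downward with offset 0 (-1.62), with the software's ratios (-2.22) and by its probe detected in both channels (-1.56), and was -0.11 with outlier spots kept. Rapgef4, a cAMP-activated exchange factor, had -0.64. Prkaca, the catalytic subunit of protein kinase A, had -0.27 in adipocytes and -0.61 in BAT, where it was 0.07 without loess.

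Of 22 genes of the calcium branch, 0 were higher and 3 lower in KO adipocytes, where 4.17% of all genes were lower, with a median of -0.05. Plcb1, a phospholipase C activated by Gq, had -1.18, but its 4 probes were spread out, with the highest at -0.10. Prkcb, a protein kinase C, had -1.10 and Itpr2, a calcium release channel, had -1.05. In BAT, 0 of 22 passed 2-fold, with a median of -0.09, and Camk2b had -0.83 and Itpr1 -0.68.

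Genes that beta-adrenergic signalling acts on in brown fat had medians below 0 on both arrays, although the one in BAT was 0.12 without loess. In KO adipocytes 8 of 23 passed 2-fold downward and 1 upward, where 4.17% and 2.5% of all genes did. Their median was -0.69. The droplet protein Plin1 had -4.38, the uncoupling protein Ucp1 -3.78, the lipase inhibitor Angptl4 -3.17 and the hormone-sensitive lipase Lipe -2.52. The lipase Pnpla2 had -2.27 and the coactivator Ppargc1a -2.31. Plin1 and Ucp1 are also 2 of the 6 fat cell markers given above, so the lists overlap. Dio2, the deiodinase that makes active thyroid hormone, had 0.83 in adipocytes.

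In KO BAT 4 of 21 of these genes passed 2-fold downward and 0 upward, where 2.44% and 0.8% of all genes did. Their median was -0.54, and it was -0.10 with outlier spots kept. Elovl3, a fatty acid elongase, had -2.14, Ucp1 -1.84, Acot11, a thioesterase of brown fat, -1.62 and Dio2 -1.07. With outlier spots kept, Elovl3, Acot11 and Dio2 were within 2-fold, at -0.36, -0.32 and -0.17, and Ucp1 was -1.97. Without loess Ucp1 stopped just short of 2-fold, and Dio2 was -0.74. Lipe had 0.00, Pnpla2 0.30 and Ppargc1a -0.35 in BAT, where all 3 were within 2-fold. Of 6 fat cell markers in BAT 1 was at least 2-fold higher and 1 lower, with a median of 0.32 that was 0.09 with the software's ratios and 1.15 without loess, and a summed signal of 611220 units in KO against 586850 in WT. The higher one, Cidea, lay at the threshold (1.01) and was under it with offset 0 (0.93), with the software's ratios (0.71) and with outlier spots kept (0.84).

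**Figure D5:**
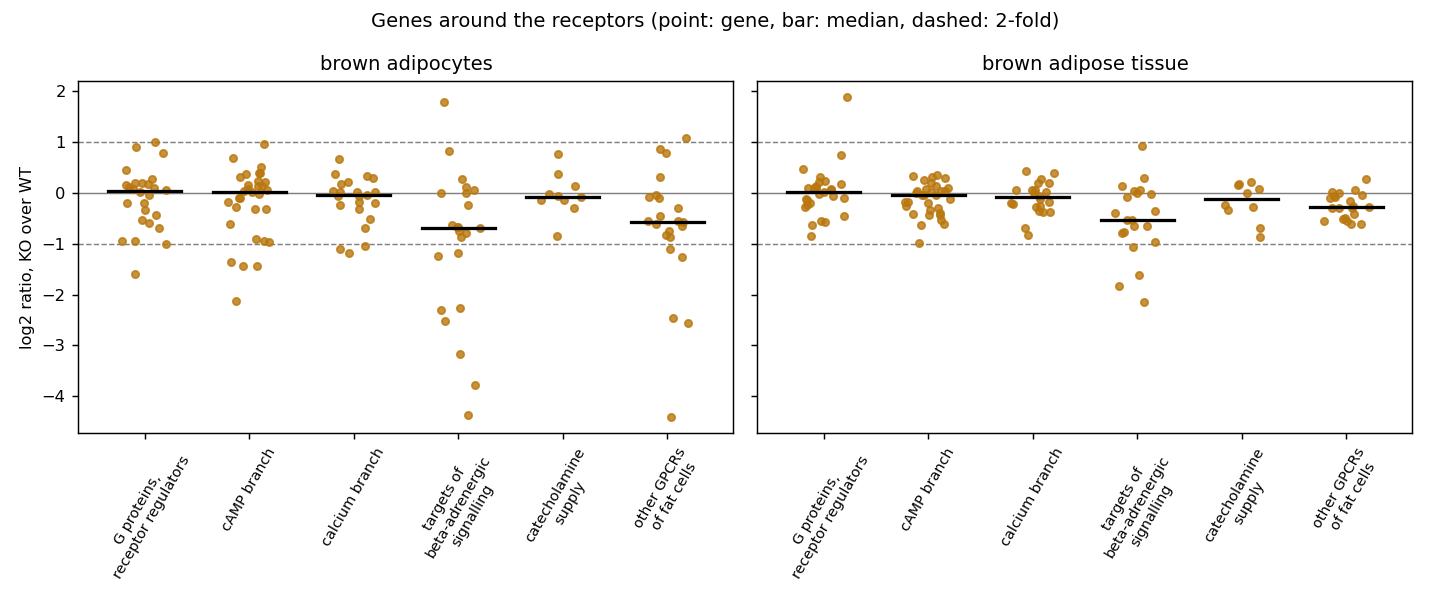
Log2 ratio of KO over WT of the genes around the receptors in brown adipocytes and in BAT (point for each gene, bar for the median, dashed lines at 2-fold). The medians of the beta-adrenergic targets lie at -0.69 in adipocytes and -0.54 in BAT (0.12 without loess), and those of the G proteins, the cAMP branch and the calcium branch lie within 0.1 of 0 on both arrays.

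Genes of catecholamine supply and breakdown did not pass 2-fold on either array, with 10 kept genes each and medians of -0.08 in adipocytes and -0.12 in BAT. Maob and Maoa, the monoamine oxidases, had -0.85 and 0.76 in adipocytes. In BAT Slc22a3, a transporter that takes up catecholamines, had -0.86, with 1 of the channels not well above background, and passed 2-fold downward with offset 0 (-1.83) and with the software's ratios (-2.80). Ddc, a decarboxylase of their synthesis, had -0.69 from probes at -1.56 and 0.18. Th, the rate-limiting enzyme of catecholamine synthesis, stayed below the detection flag in all 4 channels. Of 4 kept nerve and Schwann cell markers, S100b had -1.29 in BAT and 0 passed 2-fold in adipocytes.

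Among 24 other genes of G protein-coupled receptor signalling in fat cells, 22 were kept in adipocytes, with a median of -0.57. Of these, 1 was at least 2-fold higher and 5 were lower, where 2.5% and 4.17% of all genes were. Mrap, an accessory protein of melanocortin receptors, had -4.41. The fatty acid receptors Ffar4 and Ffar2 had -2.57 and -2.47, and Tshr, the thyrotropin receptor, had -1.27 with its KO channel not well above background. In BAT 0 of 21 passed 2-fold and the median was -0.28, which was 0.03 without loess, with P2ry1, a receptor for nucleotides, at -0.61 and Ffar2 at -0.61. The median of the adrenergic receptors in adipocytes (-0.16) lay nearer to 0, a difference that was not tested.

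Genes with the most similar pattern were sought among 11093 genes detected in both channels of both arrays, by the distance between their pairs of log2 ratios over those 2 comparisons. Nearest to Adra1b were Acvr2a, Pcdh7 and Mmadhc, at distances of 0.0037 to 0.0074. Nearest to Adra1d were Zmym5, Heca and Ccdc6, nearest to Adra2a were Dusp1, Cactin and Exoc5, and nearest to Adrb1 were Tmc6, Rhobtb1 and Noa1. All 12 lay within 0.012 of their receptor, so many genes share these small ratios.

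Other values move with these comparisons. Prkg1, the targeted gene, had -1.03 in adipocytes and -0.84 in BAT over 3 kept probes each, which ran between -2.31 and 0.17 in adipocytes and between -1.29 and 0.01 in BAT. The deleted stretch of the gene is unknown here, so these probes may lie outside it. Xist, which coats the inactive X chromosome of females, had 4.41 in BAT and -3.36 in adipocytes. Eif2s3y and Kdm5d, on the Y chromosome, were not well above background in KO BAT but were in WT BAT. Ddx3y, also Y-linked, had -3.56 in BAT. This is the pattern of a female KO and a male WT BAT sample, so sex and genotype cannot be told apart on the tissue array. In adipocytes the Y-linked genes were detected in both channels, with Eif2s3y at -0.12, Ddx3y at 0.61 and Kdm5d at 0.07. All 4 Xist probes were also well above background in both adipocyte channels, with log2 ratios between -5.26 and -1.53. The KO culture thus had less Xist beside Y-linked signals within 2-fold. A difference in sex make-up between the cultures was not tested, and it could not be told apart from genotype. In adipocytes 3 of 4 smooth muscle markers were at least 2-fold higher in KO, where 2.5% of all genes were. Their median was 1.93 and their summed signal 130700 units in KO against 27190 in WT. On that array 4 of 5 macrophage markers were at least 2-fold lower, where 4.17% of all genes were. The macrophage median was -1.83 and the summed signal 37662 units in KO against 229500 in WT. In BAT 0 of 4 smooth muscle and 0 of 5 macrophage markers passed 2-fold. None of the 4 endothelial or 4 preadipocyte markers passed 2-fold on either array. The part of these in the receptor values was not tested.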

How the data were processed

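RNA was extracted with Trizol, amplified with an Agilent low input kit and hybridised on 2 two-colour arrays, per the labels' protocols. Per the file headers, the deposited scanner output gives an intensity per spot and dye, and red over green as a log10 ratio, made with Agilent Feature Extraction 9.5.1.1. The authors' deposited value table also holds log10 ratios, equal to these turned to KO over WT within 0.0165 on the log2 scale, with medians of 0.09 in BAT and 0.02 in adipocytes. It was used as an alternative.

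Background was corrected in limma 3.58.1 (R 4.3.3) with normexp (offset 50), after leaving out spots with an outlier flag (1215 on the tissue array, 203 on the adipocyte array, none of a receptor), and ratios were normalized by loess with controls at weight 0. Channels were put on 1 scale with Aquantile. A bound divides the bright channel's signal by the dim one, raised where needed to the lowest signal detected in that channel. The steps were tested on simulated data. The members and lists were chosen with earlier results of these data known. The text names all 7 receptors, the 3 nearest genes to each receptor detected in all channels, for each list up to 4 genes past 2-fold (the 2 largest where none passed), and a preset group (such as Ucp1). Marker lists of other cell types are given by counts. The number of arrays limits the precision.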

Additional observations from a re-analysis of the deposited data

How the results depend on the processing

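No paired analysis was possible because each comparison is 1 array, and leaving out a replicate was not possible for the same reason. The count of receptors at least 2-fold lower in KO BAT was 0, and it was 1 with offset 0, with the software's ratios, with the brightest probe per gene and with the deposited table, and 4 centred on spiked-in controls. In adipocytes the count was 0, and it was 1 with offset 0, with the software's ratios, with the deposited table and centred on spiked-in controls. The count at least 2-fold higher was 0 in every setting run on either array. Detection counts under the laxer flag stayed within 1.5 times. Matching probes through the reference table added 0 probes. Leaving out background-flagged spots, adding the Adra1d probe named by accession and centring channels on their medians were chosen after seeing the data, and with the last every receptor's value of culture over tissue moved by under 0.03. The cause of the moves with outlier spots kept was not tested. Dim signal limits Adrb3, Adra2a, Adra2b, Adra1a in culture and Adra1b in BAT.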
